A study of Mus musculus with 16 samples.

Results

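Type I interferon-stimulated effector genes are the antiviral and antimicrobial proteins that a cell makes after interferon alpha or beta reaches it. A list of 36 such mouse genes was followed here, from the ubiquitin-like protein Isg15 to the giant ubiquitin ligase Rnf213. The genes were taken by symbol, matched to the Ensembl identifier in the count files, and 36 of the 36 were found among 55359 genes; all 36 also passed the filter on low counts, which left 17190 genes for testing. The choice used no measured values of these libraries, but earlier results of the same data were known when the list was drawn up.

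Polyadenylated RNA was sequenced in 16 libraries of MPI-2, a wild-type mouse line of alveolar-like macrophages grown with GM-CSF, which alveolar macrophages need to develop. Cells exposed to the fast-growing nontuberculous species Mycobacterium abscessus were profiled at day 5, beside uninfected cells at day 5, and exposed cells at day 1, beside uninfected cells at day 1, with 4 replicates in each of the 4 groups. Replicates were labelled as biological, but all came from a single line used over a wide range of passages, and no source used here gives the bacterial strain, the dose or how many cells took up bacteria. Whether replicates came from separate cultures is not stated further, so p-values measure the spread between these libraries.

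As background, type I interferons bind the receptor chains Ifnar1 and Ifnar2, whose kinases Jak1 and Tyk2 phosphorylate STAT proteins, Stat2 among them. Together with Irf9, these form the factor ISGF3, which binds the interferon-stimulated response element in the promoters of target genes. The targets include RNA and DNA sensors, enzymes that act on RNA and nucleotides, ADP-ribosyltransferases and proteins that hold back budding virus, and macrophages also use several of them during infection with mycobacteria.

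Total counts per library lay between 46154875 and 81995629, and no 2 replicates agreed within sampling noise. All 10 alveolar macrophage markers and all 8 general macrophage markers reached 1 CPM in every group, CPM being counts per 1e+06 counts of the normalised library. The summed alveolar macrophage markers lay at 8330 to 10800 CPM with exposure and 19700 to 27300 CPM without at day 5, and at 11700 to 14600 CPM with exposure and 16700 to 18400 CPM without at day 1. Chil3 made most of that gap, with 2990 ± 852 CPM with exposure and 16120 ± 4433 CPM without at day 5 (SD, n = 4 each). The other 9 summed to 6140 to 7760 CPM with exposure and 7150 to 7550 CPM without at day 5, which overlapped. At day 1 they summed to 7220 to 8350 CPM with exposure and 6940 to 7200 CPM without. The day 5 sum hid moves in both directions. Pparg averaged 185 CPM with exposure and 383 CPM without at day 5, and Fabp4 411 and 859 CPM. Fabp5 averaged 689 and 1222 CPM and Ear2 183 and 641 CPM in the same order. Itgax (928 and 193 CPM) and Mertk (234 and 190 CPM) were higher with exposure. Libraries did not overlap for any of these genes, but did for Marco, Car4 and Siglecf. The 8 general macrophage markers summed to 11500 to 16900 CPM with exposure and 5080 to 5560 CPM without at day 5. At day 1 the sums were 7590 to 8250 CPM with exposure and 4480 to 4670 CPM without. Lyz2 (7899 CPM with exposure and 2256 CPM without) and Csf2rb (4038 and 1375 CPM) held most of the day 5 sums. Mrc1 went the other way at day 5, with 102 CPM with exposure and 375 CPM without, and Adgre1 overlapped. Mitochondrial transcripts made up 0.969% ± 0.201 of the exposed and 1.71% ± 0.126 of the uninfected counts at day 5, and 2.28% ± 0.377 of the exposed and 2.11% ± 0.112 of the uninfected counts at day 1 (SD, n = 4 per group). Markers of T, B and NK cells each stayed under 1 CPM. Of 5 markers of plasmacytoid dendritic cells, a rich source of interferon alpha, the summed level was 52.6 to 73.8 CPM in exposed day 5 and 20.1 to 22.2 CPM in uninfected day 5 libraries. That sum came almost wholly from Cox6a2, while Siglech, the defining marker, had 5 reads in all exposed day 5 libraries and 0 in the other groups. The 4 neutrophil markers summed to 3.93 to 7.99 CPM in exposed day 5 libraries, mostly Camp, and to 3.35 to 3.91 CPM in uninfected day 5 libraries, mostly Mpo, with Ly6g and Elane under 1 CPM. Of the fibroblast and epithelial markers, Pdgfra and Cdh1 alone averaged 1 CPM or more in any group. Their part in the results below was not tested. Exposed day 5 replicates 2 and 3 carry another library code series than the other 14 libraries.

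The promoters of the 3 genes with the largest exposure effect at day 5 (Ifi44, Apol9b and Apol9a) are shown beside those of Ifit1, Isg15 and Ifi35, which were chosen after their values were seen as a strong, a strong and a weak responder. Each line is the 250 bases before the RefSeq start of the gene on GRCm38.p6, 5′ to 3′ on the coding strand, and capitals mark the core of the interferon-stimulated response element, searched as GAAA, any 2 bases and GAAA again, on either strand and with overlapping matches counted.
Ifi44: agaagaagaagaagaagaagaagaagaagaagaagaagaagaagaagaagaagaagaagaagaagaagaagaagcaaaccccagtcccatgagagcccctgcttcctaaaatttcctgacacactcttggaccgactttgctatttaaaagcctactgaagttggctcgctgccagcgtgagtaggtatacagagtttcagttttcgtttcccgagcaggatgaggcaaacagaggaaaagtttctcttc
Apol9b: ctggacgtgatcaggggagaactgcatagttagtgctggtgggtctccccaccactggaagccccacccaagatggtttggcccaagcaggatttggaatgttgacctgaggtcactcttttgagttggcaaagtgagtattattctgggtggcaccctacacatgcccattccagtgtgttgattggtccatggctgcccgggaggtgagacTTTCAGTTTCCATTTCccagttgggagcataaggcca
Apol9a: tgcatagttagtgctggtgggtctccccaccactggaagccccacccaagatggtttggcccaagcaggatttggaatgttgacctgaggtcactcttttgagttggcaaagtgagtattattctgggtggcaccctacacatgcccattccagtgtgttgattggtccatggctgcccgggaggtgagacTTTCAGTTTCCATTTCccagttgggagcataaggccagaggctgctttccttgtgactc
Ifit1: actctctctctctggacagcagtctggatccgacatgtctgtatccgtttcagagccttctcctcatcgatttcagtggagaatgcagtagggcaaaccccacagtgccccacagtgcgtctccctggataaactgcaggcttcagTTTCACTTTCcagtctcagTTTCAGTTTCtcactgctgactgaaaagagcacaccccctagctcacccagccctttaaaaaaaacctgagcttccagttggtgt
Isg15: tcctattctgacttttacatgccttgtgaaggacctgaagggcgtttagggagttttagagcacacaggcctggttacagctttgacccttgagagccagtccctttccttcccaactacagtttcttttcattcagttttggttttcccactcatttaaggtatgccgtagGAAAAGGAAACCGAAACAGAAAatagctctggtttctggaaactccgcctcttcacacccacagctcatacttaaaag
Ifi35: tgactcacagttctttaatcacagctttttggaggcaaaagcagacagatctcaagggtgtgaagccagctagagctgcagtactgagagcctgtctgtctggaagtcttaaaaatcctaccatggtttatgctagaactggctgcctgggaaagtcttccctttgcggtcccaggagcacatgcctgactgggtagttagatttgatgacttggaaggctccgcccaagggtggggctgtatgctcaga
Isg15 lies on the minus strand at chr4:156200819-156201068, Ifit1 on the plus strand at chr19:34640639-34640888, Apol9b on the plus strand at chr15:77728822-77729071 and Apol9a on the minus strand at chr15:77411081-77411330. Ifi44 lies on the minus strand at chr3:151749911-151750160 and Ifi35 on the plus strand at chr11:101448162-101448411. Isg15 held 3 matches, Ifit1, Apol9b and Apol9a 2 each, and Ifi44 and Ifi35 0. Apol9a and Apol9b share an identical run of at least 228 bases in their promoters. It reaches from the start of the printed Apol9a window to the end of that of Apol9b, so the windows limit its length.

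RefSeq windows reaching from 250 bases before to 50 bases after the start were at hand for 27 of the 36 genes, and 13 of those 27 (48.1%) held the core in at least 1 window, against 3.99% of 27025 genes with a window. Besides Isg15, Ifit1, Apol9a and Apol9b these were Ifit3, Ifit3b, Rsad2, Ifih1, Ddx60, Eif2ak2, Ifi205, Stat2 and Bst2. TTCNNNGAA, the core of the gamma-activated site, was found in 6 of the 27 (22.2%) and in 9.55% of all genes. The 13 genes with the response element core had a median log2 exposure effect of 8.26 at day 5 (range 1.78 to 10.36), and the 14 without it had a median of 3.36 (range 1.35 to 11.21). Those with the core include Apol9a with Apol9b and Ifit3 with Ifit3b, pairs that share transcript sequence and are not separate observations. A match is a description of the letters in this window and not evidence of binding. A missing match is not evidence that the element is absent, as variants of the core were not searched. Ifi44, with the largest effect, had no exact match. The genes without a window at hand were Mx1, Mx2, Usp18, Rtp4, Zbp1, Dhx58, Parp9, Parp14 and Ifi204.

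All 36 genes were higher in exposed than in uninfected cells at day 5, and all 36 were also higher at day 1. A log2 fold change is the base 2 logarithm of the exposed over the uninfected level, and a gene was called at an adjusted p under 0.05 in the quasi-likelihood test of edgeR, p-values being adjusted by Benjamini-Hochberg over all 17190 genes. Across all genes, 28.6% were called higher at day 5 and 13.4% at day 1. In 36 of 36 genes every exposed library lay above every uninfected library of the same day, which held for 22.3% of all genes at day 5 and for 19.6% at day 1. The median log2 fold change of the 36 was 4.92 at day 5 (range 1.35 to 11.21) and 4.28 at day 1 (range 1.23 to 7.85), beside medians of 0.02 and 0.03 over all genes tested. A log2 fold change of at least 2 was reached by 32 of the genes at day 5 and by 27 at day 1, against 6.11% and 1.51% of all genes. As the cultures were sequenced in bulk, a larger share of responding cells and more RNA per responding cell cannot be told apart.

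**Figure D1:**
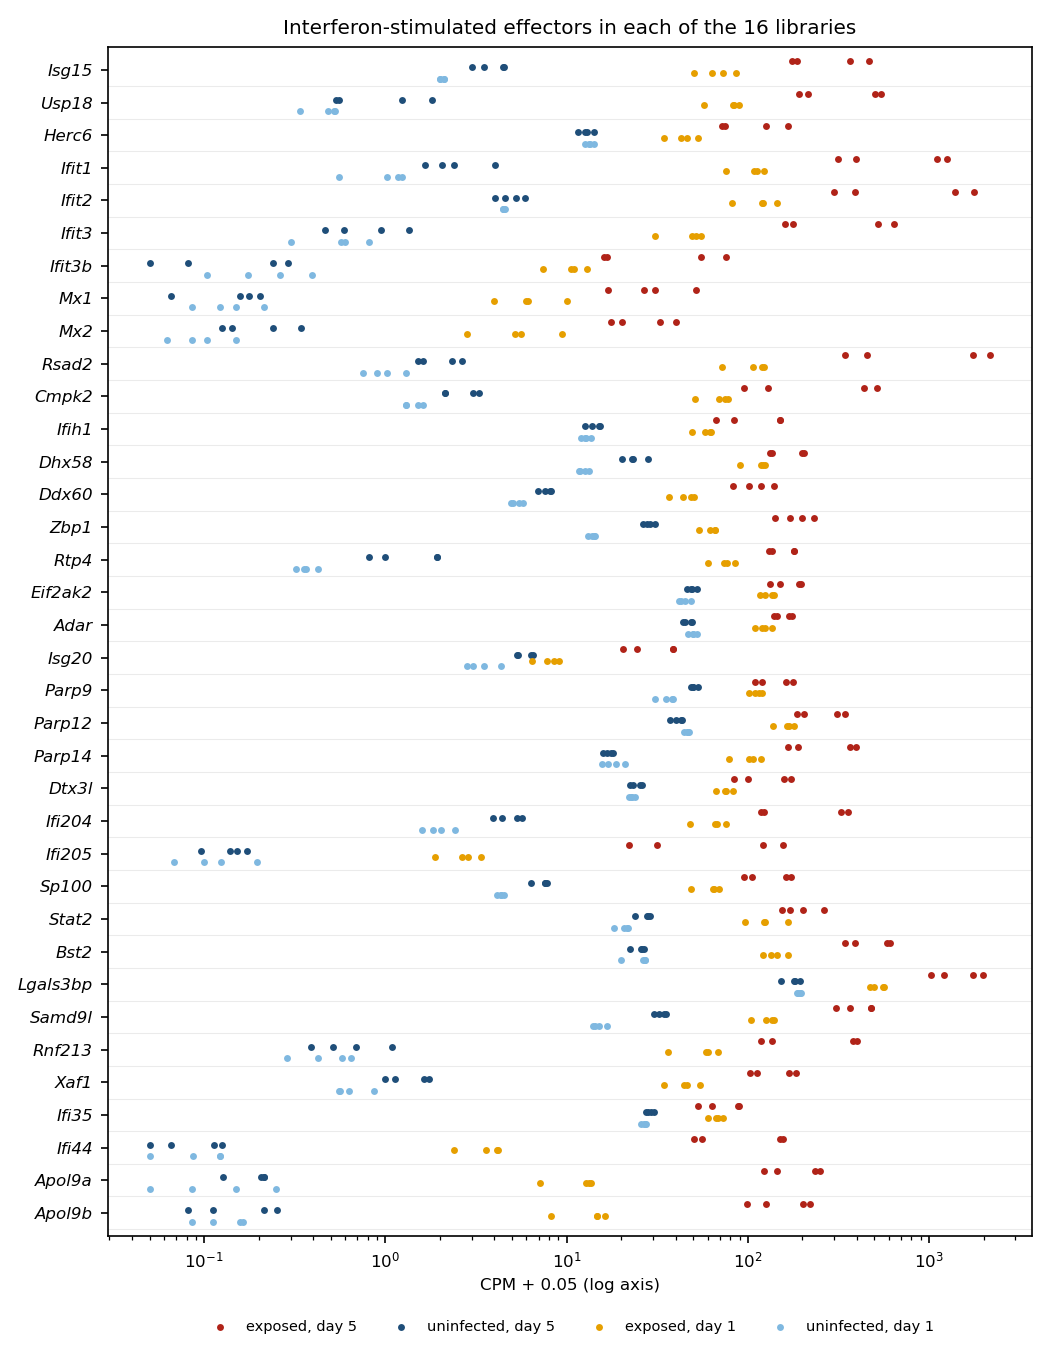
Level of each of the 36 genes in each of the 16 libraries, as CPM plus 0.05 on a log axis; every point is 1 library and colours mark the 4 groups. Exposed libraries lie right of uninfected libraries of the same day for all 36 genes, and the exposed day 5 points are the most spread out.

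Together the 36 genes made up 0.955% ± 0.394 of exposed and 0.065% ± 0.0038 of uninfected counts at day 5, and 0.303% ± 0.0389 of exposed and 0.0592% ± 0.002 of uninfected counts at day 1 (SD, n = 4 each). Levels of different genes can be compared only per length, here as CPM per kilobase of exon in GENCODE M21. Exons of all annotated transcripts of a gene were merged, whether expressed or not. In exposed day 5 cells the highest were Bst2 at 534 ± 149, Lgals3bp at 525 ± 159, Isg15 at 396 ± 188 and Ifit1 at 289 ± 180 CPM per kilobase (SD, n = 4), and each of these overlapped its neighbour in that order. In uninfected day 5 cells Lgals3bp led with 62.3 ± 6.16, followed by Bst2 with 27.9 ± 2.19 and Ifi35 with 16.7 ± 0.752 CPM per kilobase, which did not overlap. Exposed day 1 cells had the order Lgals3bp (184 ± 16.3), Bst2 (157 ± 21.1) and Isg15 (90.3 ± 20.0 CPM per kilobase), where Lgals3bp and Bst2 overlapped. Uninfected day 1 cells had the order Lgals3bp (67.3 ± 1.62), Bst2 (27.9 ± 3.82) and Ifi35 (15.4 ± 0.454 CPM per kilobase). Mx2 and Mx1 were the lowest per kilobase in exposed day 5 cells, at 7.65 ± 2.94 and 8.33 ± 3.89.

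In the ISG15 system, Isg15 is the modifier, Herc6 the ligase that attaches it in mice, and Usp18 the protease that removes it and also holds back the interferon receptor. All 3 rose at both days. Usp18 (ENSMUSG00000030107.11) had 214, 501, 192 and 545 CPM in exposed day 5 libraries, against 1.75, 0.481, 1.18 and 0.505 CPM in uninfected day 5 libraries. At day 1 it had 84.2, 89.7, 57.6 and 82.4 CPM in exposed and 0.477, 0.435, 0.289 and 0.470 CPM in uninfected libraries. Uninfected cells of both days thus held Usp18 at or under 1.75 CPM, far below every exposed library, and among exposed day 5 libraries replicates 2 and 4 were the high ones. The log2 fold change was 8.49 ± 0.46 at day 5 (SE, adjusted p = 1.58e-10) and 7.53 ± 0.48 at day 1 (adjusted p = 8.71e-09). Isg15 averaged 299 ± 142 CPM with exposure and 3.82 ± 0.748 CPM without at day 5 (SD, n = 4 each), and 68.2 ± 15.1 and 2.00 ± 0.0571 CPM at day 1. Herc6 held 12.8 ± 1.05 CPM in uninfected day 5 cells, and its log2 fold changes were 3.10 ± 0.22 at day 5 and 1.73 ± 0.21 at day 1.

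The 4 IFIT genes encode proteins of tetratricopeptide repeats that bind viral RNA, in the case of Ifit1 RNA whose cap lacks methyl groups of the host kind. They sit within a few genes of each other on chromosome 19 in RefSeq, and all 4 rose at both days, by 7.62 to 8.85 on the log2 scale at day 5 and by 4.71 to 6.78 at day 1. Ifit2 (ENSMUSG00000045932.13) had 391, 1398, 298 and 1760 CPM in exposed day 5 libraries and 5.84, 4.52, 5.21 and 4.00 CPM in uninfected day 5 libraries. In exposed day 1 libraries it had 119, 145, 81.4 and 121 CPM, and in uninfected day 1 libraries 4.48, 4.39, 4.43 and 4.50 CPM. Replicates 2 and 4 of exposed day 5 held over 3 times the Ifit2 level of replicates 1 and 3, but the lowest of them was still above every exposed day 1 library. Ifit1 reached 766 ± 479 CPM in exposed day 5 cells, against 2.48 ± 1.05 CPM in uninfected day 5 cells. Of the 50-base stretches of Ifit3 transcripts, 51.2% also occur in Ifit3b, and 44.5% of those of Ifit3b in Ifit3. How shared reads were assigned is not stated in the sources used here, so the separate counts of Ifit3 (375 ± 244 CPM in exposed day 5 cells) and Ifit3b (40.8 ± 29.6 CPM) are uncertain.

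Mx1 and Mx2, dynamin-like GTPases that trap viral nucleoproteins, were close to silent in uninfected cells. Mx1 (ENSMUSG00000000386.17) had 16.8, 30.8, 26.7 and 51.8 CPM in exposed day 5 libraries, against 0.152, 0.109, 0.127 and 0.0153 CPM in uninfected day 5 libraries. Its day 1 values were 5.88, 6.10, 3.92 and 9.99 CPM in exposed and 0.163, 0.0995, 0.0724 and 0.0362 CPM in uninfected libraries. Replicate 4 was the highest exposed library at both days, and no uninfected library passed 0.163 CPM. The uninfected libraries of a day held 27 to 30 Mx1 reads in all, so the log2 fold changes of 8.22 ± 0.48 at day 5 and 6.00 ± 0.49 at day 1 rest on few reads on 1 side. Mx2 rose by 7.41 ± 0.47 at day 5 and 6.72 ± 0.56 at day 1 on the log2 scale, with 46 and 14 reads in the uninfected groups.

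Rsad2 encodes viperin, a radical-SAM enzyme that makes a chain-terminating nucleotide, and Cmpk2, the gene beside it on chromosome 12, a mitochondrial nucleotide kinase. Rsad2 (ENSMUSG00000020641.17) had 453, 1759, 342 and 2170 CPM in exposed day 5 libraries, against 2.60, 1.46, 2.27 and 1.56 CPM in uninfected day 5 libraries. At day 1 the values were 107, 120.3, 72.4 and 123 CPM in exposed and 1.25, 0.970, 0.706 and 0.850 CPM in uninfected libraries. The exposed day 5 libraries fell apart into replicates 2 and 4, at 1759 CPM or more, and replicates 1 and 3, at 453 CPM or less. The log2 fold change of Rsad2 was 9.21 ± 0.62 at day 5 (adjusted p = 2.25e-09) and 6.78 ± 0.59 at day 1 (adjusted p = 4.02e-07). Cmpk2 averaged 295 ± 214 CPM with exposure and 2.60 ± 0.603 CPM without at day 5, a log2 fold change of 6.81 ± 0.51.

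The sensor group held 5 genes: Ifih1 (MDA5, a receptor for long double-stranded RNA), Dhx58 (LGP2, its regulator), the helicase Ddx60, Zbp1 (a sensor of Z-form nucleic acids that can start necroptosis) and Rtp4, a receptor-transporter protein that can restrict viruses. All of them rose at both days. Dhx58 (ENSMUSG00000017830.16) had 136, 199.6, 133 and 205 CPM in exposed day 5 libraries and 23.1, 20.1, 28.1 and 22.9 CPM in uninfected day 5 libraries. On day 1 it had 119, 121, 90.5 and 125 CPM in exposed libraries and 13.3, 11.7, 11.7 and 12.6 CPM in uninfected libraries. Its level was thus higher at day 5 in exposed and in uninfected cells, and the log2 effects of 2.84 ± 0.15 at day 5 and 3.20 ± 0.15 at day 1 differed by -0.37 ± 0.20, which was not called (adjusted p = 0.17). Rtp4 (ENSMUSG00000033355.7) had 136, 179, 131 and 179 CPM in exposed day 5 libraries, against 1.87, 0.947, 1.87 and 0.766 CPM in uninfected day 5 libraries. Exposed day 1 libraries held 77.1, 85.2, 60.4 and 73.7 CPM, and uninfected day 1 libraries 0.314, 0.373, 0.271 and 0.307 CPM. At day 1 its log2 fold change of 7.85 ± 0.28 was the largest of the 36 genes, ahead of Usp18 and of Apol9b with 7.33 ± 0.44, each within the sum of the standard errors.

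Among genes acting on RNA, Eif2ak2 encodes PKR, a kinase that stops translation when double-stranded RNA appears, Adar an enzyme that edits adenosines in double-stranded RNA, and Isg20 an exonuclease. At day 1, Isg20 and Adar had the smallest effects of the 36 genes, and Eif2ak2 one of the smallest. Eif2ak2 (ENSMUSG00000024079.5) had 150, 197, 132 and 191 CPM in exposed day 5 libraries and 49.2, 48.4, 52.3 and 45.9 CPM in uninfected day 5 libraries. Its exposed day 1 libraries held 125, 139, 117 and 136 CPM and its uninfected day 1 libraries 45.3, 41.9, 42.8 and 48.5 CPM. The groups did not overlap within a day, with log2 fold changes of 1.78 ± 0.11 at day 5 and 1.53 ± 0.11 at day 1, but exposed libraries of the 2 days did overlap. Isg20 (ENSMUSG00000039236.19) had 20.4, 38.8, 24.4 and 38.7 CPM in exposed and 5.37, 5.25, 6.31 and 6.46 CPM in uninfected day 5 libraries, a log2 fold change of 2.38 ± 0.19. At day 1 it had 9.03, 8.50, 6.42 and 7.71 CPM in exposed and 3.45, 3.01, 4.27 and 2.79 CPM in uninfected libraries, the smallest day 1 effect of the list (log2 fold change 1.23 ± 0.19, adjusted p = 0.000194). Adar rose by 1.75 ± 0.09 at day 5 and 1.30 ± 0.09 at day 1 on the log2 scale.

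The list held 4 genes of ADP-ribosylation. Parp9 works with the ubiquitin ligase Dtx3l, whose gene lies between those of Parp9 and Parp14 on chromosome 16. Parp12 and Parp14 add single ADP-ribose units to proteins. Parp12 (ENSMUSG00000038507.7) had 204, 312, 187 and 346 CPM in exposed day 5 libraries, against 43.4, 40.2, 42.8 and 36.9 CPM in uninfected day 5 libraries. For day 1 the values were 168, 179.9, 138 and 165 CPM in exposed and 44.2, 45.9, 47.0 and 47.6 CPM in uninfected libraries. All 4 genes rose at both days, by 1.50 (Parp9) to 4.04 (Parp14) on the log2 scale at day 5 and by 1.64 (Parp9) to 2.49 (Parp14) at day 1. Of the neighbours, Parp9 averaged 142 ± 32.9 CPM in exposed day 5 and 112 ± 7.66 CPM in exposed day 1 cells, and Dtx3l 129 ± 43.9 and 75.1 ± 6.80 CPM.

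Ifi204 and Ifi205 belong to the PYHIN family, whose members bind DNA, and Sp100 builds nuclear bodies. Ifi204 (ENSMUSG00000073489.7) had 118, 327, 123 and 357 CPM in exposed day 5 libraries, against 5.29, 3.87, 5.63 and 4.37 CPM in uninfected day 5 libraries. In day 1 cells it had 67.4, 76.0, 47.8 and 65.9 CPM with exposure and 1.97, 2.39, 1.79 and 1.54 CPM without. Ifi205 (ENSMUSG00000054203.8) had 22.1, 122, 31.6 and 157 CPM in exposed day 5 and 2.80, 3.32, 1.84 and 2.61 CPM in exposed day 1 libraries, the largest difference between the days in exposed cells among the 36 genes (log2 4.97 ± 0.52, adjusted p = 7.65e-07). It was also the gene with the widest spread in exposed day 5 cells, where the highest library held 7.13 times the lowest. Uninfected cells had only 26 Ifi205 reads at day 5 and 19 at day 1 over 4 libraries each. Sp100 rose by 4.20 ± 0.18 at day 5 and 3.85 ± 0.18 at day 1 on the log2 scale.

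Stat2 is itself part of the factor that drives these genes. Stat2 (ENSMUSG00000040033.17) had 154, 202, 172 and 262 CPM in exposed day 5 libraries and 27.9, 28.6, 23.7 and 27.9 CPM in uninfected day 5 libraries. It had 124, 123, 96.2 and 167 CPM in exposed day 1 and 20.8, 18.3, 21.7 and 21.5 CPM in uninfected day 1 libraries. The log2 fold change was 2.87 ± 0.17 at day 5 (adjusted p = 9.75e-11) and 2.63 ± 0.17 at day 1 (adjusted p = 2.34e-09), and exposed libraries of the 2 days overlapped, replicate 4 of day 1 lying above replicate 1 of day 5.

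Bst2, or tetherin, holds budding virus at the cell surface, and Lgals3bp is a secreted glycoprotein that binds galectins. Both were already abundant without exposure. Lgals3bp (ENSMUSG00000033880.12) had 1209, 1995, 1026 and 1744 CPM in exposed day 5 libraries, against 183, 181, 194 and 152 CPM in uninfected day 5 libraries. The day 1 libraries held 566, 561, 499 and 472 CPM with exposure and 197, 193, 187 and 189 CPM without. Its log2 fold change was 3.07 ± 0.16 at day 5 and 1.45 ± 0.16 at day 1. Bst2 (ENSMUSG00000046718.9) had 390.3, 584, 344 and 610.5 CPM in exposed day 5 and 26.8, 25.6, 26.1 and 22.3 CPM in uninfected day 5 libraries. It had 166, 144, 122 and 134 CPM in exposed and 27.1, 20.0, 26.4 and 27.1 CPM in uninfected day 1 libraries, log2 fold changes of 4.26 ± 0.18 at day 5 and 2.49 ± 0.17 at day 1.

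Of the remaining 7 genes, Samd9l restricts poxviruses, Rnf213 is a giant ubiquitin ligase known to coat bacteria with ubiquitin, Xaf1 binds the apoptosis inhibitor XIAP, Ifi35 and Ifi44 are interferon-induced proteins, and Apol9a and Apol9b belong to the apolipoprotein L family. All 7 rose at both days. Ifi44 (ENSMUSG00000028037.14) had 50.4, 149.7, 55.8 and 157 CPM in exposed day 5 libraries, against 0.0635, 0.0155, 0.0762 and 0 CPM in uninfected day 5 libraries. At day 1 it had 3.52, 4.07, 2.33 and 4.11 CPM in exposed and 0, 0.0373, 0.0724 and 0.0724 CPM in uninfected libraries. With 12 reads in all 4 uninfected day 5 libraries and 11 in those of day 1, its log2 fold changes of 11.21 ± 0.60 at day 5, the largest of the list, and 6.36 ± 0.68 at day 1 have a poorly measured base. Apol9a (ENSMUSG00000057346.13) had 122, 234, 144 and 250.4 CPM in exposed day 5 and 0.165, 0.155, 0.165 and 0.0766 CPM in uninfected day 5 libraries. Exposed day 1 libraries held 12.8, 13.3, 7.04 and 13.6 CPM and uninfected day 1 libraries 0.100, 0.199, 0.0362 and 0 CPM. Replicates 2 and 4 led among exposed day 5 libraries and replicate 3 was low at exposed day 1, with no overlap between the 2 exposed groups. Apol9b (ENSMUSG00000068246.7) had 99.5, 201, 125 and 220.5 CPM in exposed day 5 and 0.203, 0.0310, 0.165 and 0.0613 CPM in uninfected day 5 libraries. Its day 1 values were 16.1, 14.7, 8.15 and 14.6 CPM with exposure and 0.113, 0.0622, 0.0362 and 0.108 CPM without. In CPM, which takes no account of length, the 2 genes stood close together in each exposed library. Per kilobase of exon Apol9b was the higher in exposed day 5 cells, at 88.7 ± 32.0 against 31.6 ± 10.7 for Apol9a (SD, n = 4 each). The annotated exons, merged over all transcripts whether expressed or not, span 5.95 kilobases for Apol9a and 1.82 for Apol9b. That order thus rests on the annotated length and is not a measured difference in expression. In exposed day 1 cells Apol9b had 7.36 ± 1.96 and Apol9a 1.96 ± 0.524 CPM per kilobase. Of the 50-base stretches of Apol9b transcripts 52.3% also occur in Apol9a, and 16.5% of those of Apol9a in Apol9b, so reads may have been divided between them.

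Ifi35 (ENSMUSG00000010358.14) had 63.4, 88.9, 52.8 and 88.1 CPM in exposed day 5 libraries and 29.3, 27.2, 30.2 and 28.2 CPM in uninfected day 5 libraries, the smallest day 5 effect of the 36 genes (log2 1.35 ± 0.13, adjusted p = 2.64e-08). At day 1 it had 73.1, 68.7, 60.4 and 66.3 CPM in exposed and 26.5, 27.0, 27.5 and 25.6 CPM in uninfected libraries, with a log2 fold change of 1.33 ± 0.13. Exposed libraries of the 2 days overlapped. Samd9l (ENSMUSG00000047735.15) had 306, 480.1, 366 and 481 CPM in exposed day 5 and 30.2, 32.4, 35.2 and 34.3 CPM in uninfected day 5 libraries. It had 126, 139, 104 and 136 CPM in exposed day 1 and 15.0, 14.3, 13.9 and 16.6 CPM in uninfected day 1 libraries, and none of its 4 groups overlapped. Rnf213 averaged 258 ± 152 CPM with exposure and 0.620 ± 0.306 CPM without at day 5, and Xaf1 142 ± 40.4 and 1.32 ± 0.362 CPM.

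**Figure D2:**
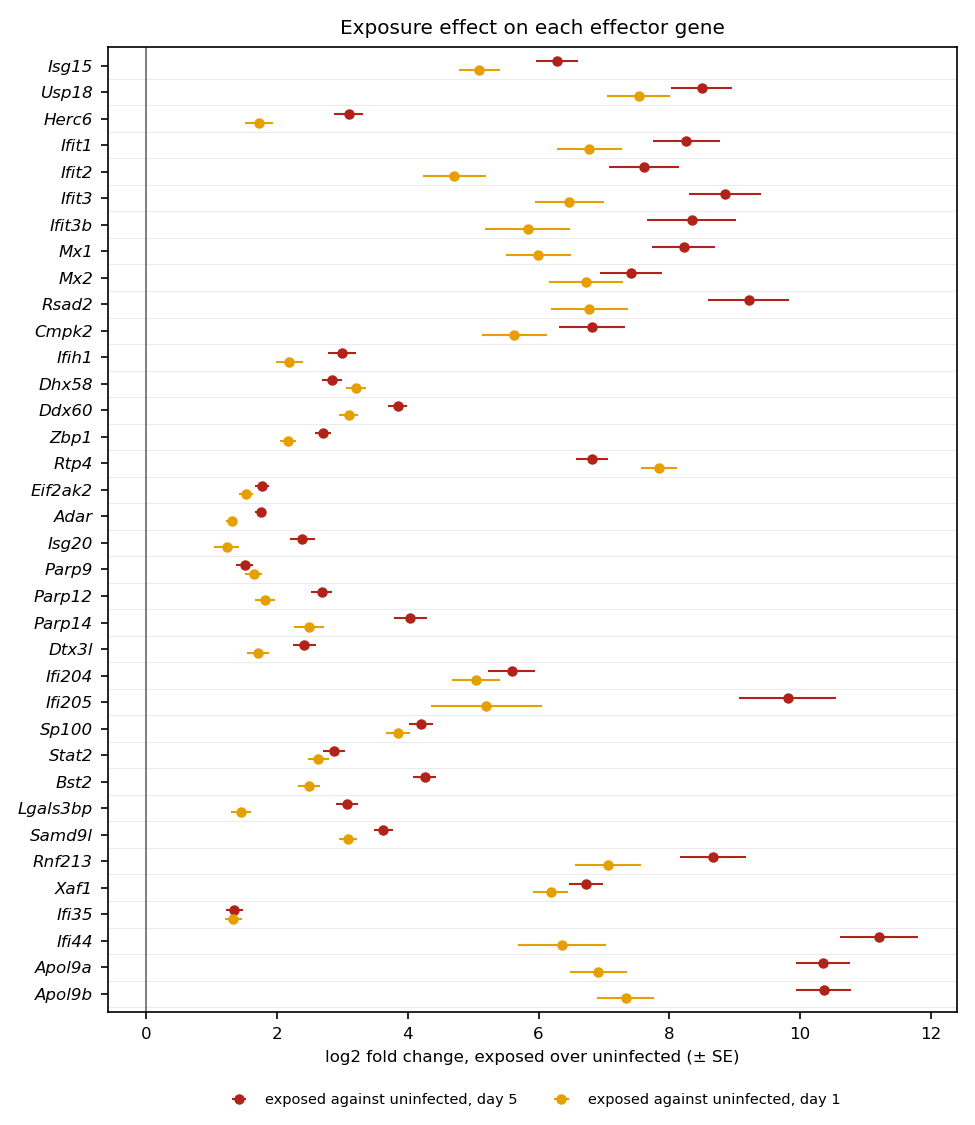
Log2 fold change of exposed over uninfected cells for each of the 36 genes, at day 5 and at day 1, with standard errors as bars. All points lie right of 0, from 1.35 (Ifi35) to 11.21 (Ifi44) at day 5 and from 1.23 (Isg20) to 7.85 (Rtp4) at day 1.

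The size of an effect went with how silent the gene was without exposure, a relation that uninfected levels share in by construction. The 14 genes under 1 CPM in uninfected day 1 cells had log2 effects from 6.73 to 11.21 at day 5 and from 5.20 to 7.85 at day 1. The 22 genes at 1 CPM or more had effects from 1.35 to 7.62 at day 5 and from 1.23 to 5.63 at day 1. Across the 36 genes the effects of the 2 days, which share no libraries, correlated with Pearson's r = 0.919 and Spearman's rho = 0.895, given as a description because genes are not independent replicates.

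Whether the exposure effect itself differed between the days was tested as an interaction. It was larger at day 5 for 18 of the 36 genes and smaller for 1, Rtp4, and 17 were not called; 16.4% of all genes were called larger and 19.5% smaller. The median change was 1.06 on the log2 scale, beside -0.04 over all genes, and 33 of the 36 changes were above 0. The largest called changes were those of Apol9a (3.43 ± 0.95, adjusted p = 0.00989), Apol9b (3.02 ± 0.99, adjusted p = 0.0253) and Ifit2 (2.90 ± 0.60, adjusted p = 0.0014). Bst2 (1.77 ± 0.23, adjusted p = 1.33e-05) and Lgals3bp (1.62 ± 0.22, adjusted p = 1.56e-05) had the smallest p-values, and the smallest change of all was that of Ifi35 at 0.02 ± 0.17. By role, the effect grew for 2 of 4 IFIT genes and for 3 of 4 genes of ADP-ribosylation. It grew for 2 of 3 genes of the ISG15 system, for Bst2 and for Lgals3bp. In the sensor group it grew for 3 of 5 genes and was smaller for the receptor-transporter protein Rtp4. Ifi204, Ifi205 and Sp100 were not called. A gene that was not called is not shown to have kept its effect: Ifi44 changed by 4.85 ± 1.88 (adjusted p = 0.055) and Ifi205 by 4.62 ± 1.88 (adjusted p = 0.0666), with few reads of either gene in uninfected cells.

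These calls depended on single libraries more than the effects themselves did. Leaving out 1 library at a time gave 13 to 25 called genes, the lowest without exposed day 5 replicate 2 and the highest without exposed day 5 replicate 1. Of the 19 calls, 10 held under all of the 21 alternatives that kept at least 15 libraries or changed only the method: Herc6, Ifit2, Ddx60, Zbp1, Adar, Isg20, Parp12, Parp14, Bst2 and Lgals3bp. Rtp4's smaller effect was lost in 11 of those 21 (adjusted p up to 0.132), that of Ifih1 in 10, Isg15 in 8 and Dtx3l in 7. Apol9b and Samd9l lost the call in 4 each, Ifit3 in 3, Rsad2 in 2 and Apol9a in 1, the fit without uninfected day 1 replicate 2 (adjusted p = 0.134).

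**Figure D3:**
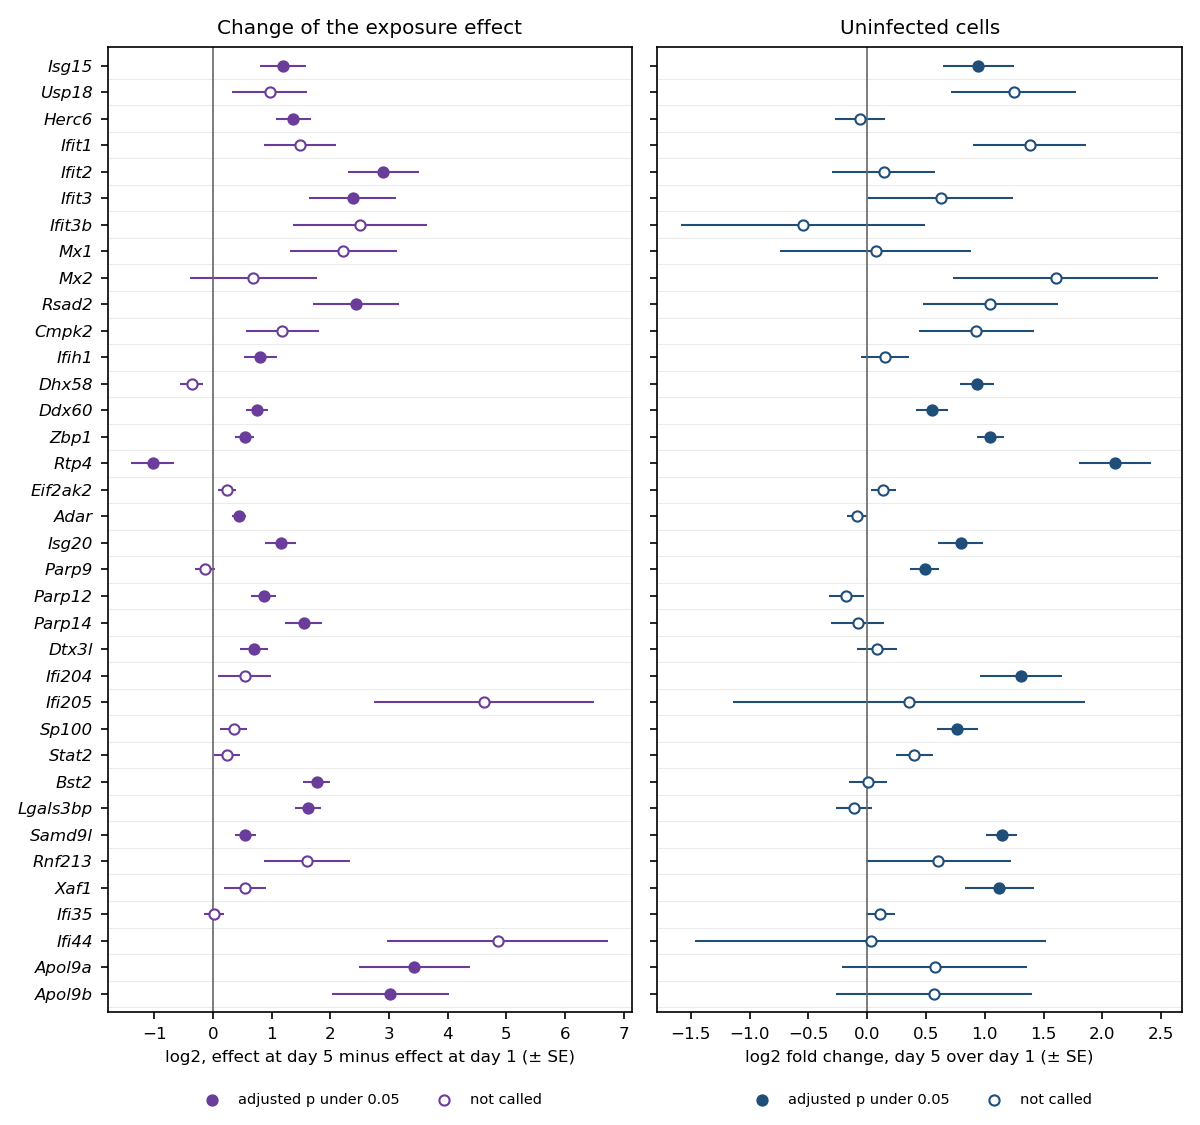
Left, the exposure effect at day 5 minus that at day 1 for each gene; right, the log2 fold change of uninfected cells at day 5 over day 1, both with standard errors. Filled points passed an adjusted p of 0.05: on the left 18 genes above 0 and Rtp4 below, on the right 11 genes above 0.

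Without exposure, 11 of the 36 genes were higher at day 5 than at day 1, 0 were lower and 25 were not called, against 10.8% and 8.91% of all genes, and the median log2 fold change was 0.56, beside 0.02 over all genes. No gene was lower by edgeR at an unadjusted p under 0.05 either, nor by DESeq2, and 14 were higher at that threshold by edgeR. Higher were Isg15, Dhx58, Ddx60, Zbp1, Rtp4, Isg20, Parp9, Ifi204, Sp100, Samd9l and Xaf1. The largest called rises were those of Rtp4 with 2.10 ± 0.31 (adjusted p = 0.000161), Ifi204 with 1.31 ± 0.35 (adjusted p = 0.0147), Samd9l with 1.14 ± 0.13 (adjusted p = 6.33e-06) and Xaf1 with 1.12 ± 0.29 (adjusted p = 0.0121). Zbp1 (ENSMUSG00000027514.15) had 26.5, 27.9, 30.6 and 28.8 CPM in uninfected day 5 libraries, against 14.3, 14.1, 13.7 and 13.1 CPM in uninfected day 1 libraries. Exposed libraries held 142, 231, 172 and 199 CPM at day 5 and 66.2, 62.1, 53.7 and 65.8 CPM at day 1. In 16 of the 36 genes every uninfected day 5 library lay above every uninfected day 1 library, in 1, Parp12, every one lay below, and 19 overlapped; the shares over all genes were 17.6% above and 17.9% below. Bst2, Lgals3bp, Herc6 and Parp14 were among those that overlapped, with 0.00 ± 0.16 for Bst2, the smallest change of the list.

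The uninfected level enters the exposure effect, so the 2 comparisons are not independent. Rtp4 shows it: the exposed level averaged 156 ± 26.5 CPM at day 5 and 74.1 ± 10.4 CPM at day 1, but the uninfected level 1.36 ± 0.588 CPM at day 5 and 0.316 ± 0.0421 CPM at day 1, and the ratio was smaller at day 5. Of the 18 genes with a larger effect at day 5, 5 were also higher in uninfected day 5 cells (Isg15, Ddx60, Zbp1, Isg20 and Samd9l). This share is similar to the 11 of all 36 genes. Dhx58, Parp9, Ifi204, Sp100 and Xaf1 were higher in uninfected day 5 cells with no called change of effect. In a fit on the uninfected libraries alone 16 genes of the list were called higher and 1, Parp12, lower. That fit also called more of the other tested pathway genes described below. Of these, 10 were called higher and 10 lower, beside 6 and 2 in the fit on all libraries. The share of all genes called in that fit was not determined, so its larger count cannot be read as particular to this list. The call for Isg15 (adjusted p = 0.0379) was lost in 9 of 21 alternatives and that for Ifi204 in 2.

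Within exposed cells, 35 of the 36 genes were higher at day 5 than at day 1, against 25.6% of all genes, with a median log2 fold change of 1.73 beside 0.00 over all genes. All 4 day 5 libraries lay above all 4 day 1 libraries in 32 genes, a pattern that 19.5% of all genes had, and 4 overlapped. A log2 fold change of at least 2 was reached by 14 genes, against 4.69% of all genes; 25.2% of all genes were lower. After Ifi205 the largest rises were those of Ifi44 (4.88 ± 0.38, adjusted p = 2.76e-08) and Apol9a (4.01 ± 0.28, adjusted p = 7.73e-09). Ifi35 was the 1 gene not called, at 0.13 ± 0.12 (adjusted p = 0.409). Parp9, the smallest called change at 0.35 ± 0.12 (adjusted p = 0.0209), lost its call without exposed day 1 replicate 3, without exposed day 5 replicate 2 or 4, in the fit on the exposed libraries alone and with replicates 1 and 2 or 3 and 4 alone (adjusted p up to 0.163).

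Exposed day 5 libraries differed among themselves in one way for the whole list. Replicates 2 and 4 were the 2 highest of the 4 libraries for 36 of 36 genes, an order that 25.6% of all genes tested showed. Replicate 4 was the highest for 27 genes and replicate 2 for 9. The ratio of the highest to the lowest library had a median of 2.14, from 1.25 for Adar to 7.13 for Ifi205, with Rsad2 at 6.34 and Ifit2 at 5.90. The median standard deviation of the log2 level was 0.527 for the 36 genes and 0.224 for all genes in exposed day 5 libraries, and 0.136 and 0.118 in those of uninfected day 5. It was 0.262 and 0.118 in exposed day 1 and 0.102 and 0.0931 in uninfected day 1 libraries. In exposed day 1 cells replicate 3 was the lowest for 35 of 36 genes, as it was for 21.7% of all genes. In uninfected day 5 cells replicates 1 and 3 were the 2 highest for 24 of 36, and for 14.1% of all genes. The high pair at exposed day 5 holds 1 library of each code series, and so does the low pair; what sets the pairs apart was not tested. The model shares 1 dispersion per gene among the 4 groups, so standard errors do not measure the spread of exposed day 5 alone.

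**Figure D4:**
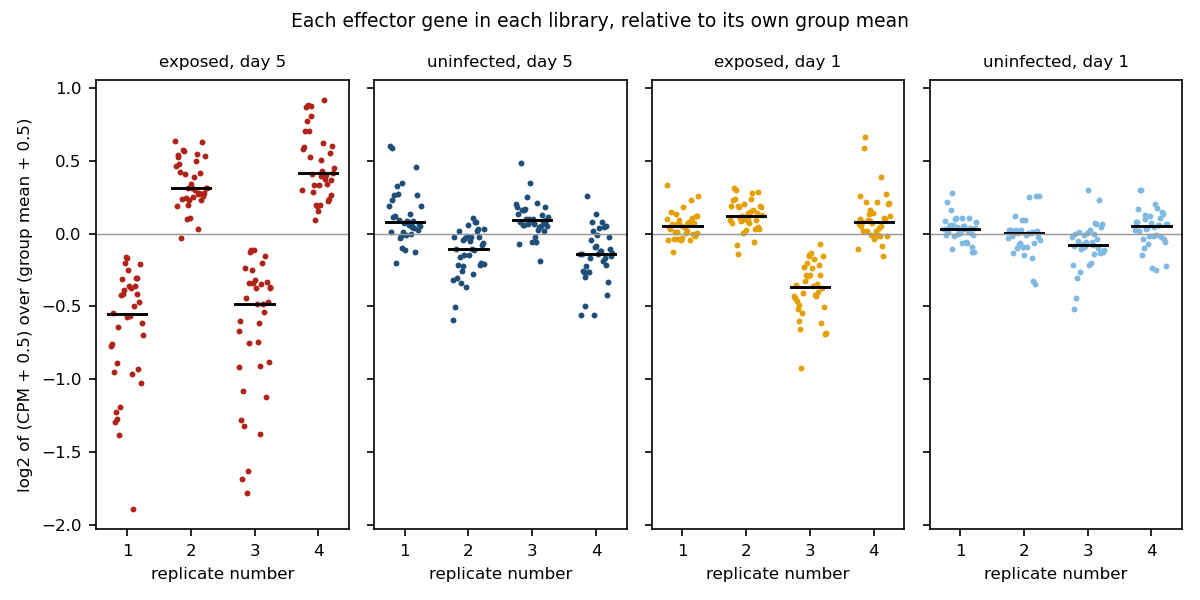
Level of each of the 36 genes in each library relative to the mean of its own group, as the log2 ratio of CPM plus 0.5; points are genes, black bars the median over genes. In exposed day 5 cells the medians of replicates 2 and 4 lie above and those of replicates 1 and 3 below the group mean, and in exposed day 1 cells replicate 3 lies below it.

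The interferons themselves were rare transcripts. Ifnb1, which encodes interferon beta, had 0.728, 2.96, 1.08 and 1.94 CPM in exposed day 5 libraries, against 0, 0, 0.102 and 0.0766 CPM in uninfected day 5 libraries, 428 and 13 reads over the groups (log2 fold change 5.16 ± 0.70, adjusted p = 1.24e-05). At day 1 it had 0.266, 0.117, 0.146 and 0.308 CPM in exposed libraries and 0 reads in all 4 uninfected libraries, so it was at least 18.3-fold higher against a floor of 3 reads over the group. Its 2 highest exposed day 5 libraries were replicates 2 and 4, as for the 36 effector genes. Ifna5 had 100 reads in exposed day 5 and 0 in uninfected day 5 libraries, at least 37.6-fold higher, and 15 against 0 at day 1, at least 4.90-fold higher by the same floor. Ifna4 had 71 against 0 reads at day 5 and 24 against 0 at day 1, but did not pass the low-count filter. Of 21 interferon genes in the files, 10 had more than 3 reads in exposed day 5 and 3 in uninfected day 5 cells, and 7 in exposed day 1 and 3 in uninfected day 1 cells. Ifng, the gene of interferon gamma, had 0 reads in every library, which at this depth allows up to 3 reads over a group. Near-identical sequence among interferon alpha genes leaves their separate counts uncertain.

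Of 64 further genes of the pathway on lists drawn up for this comparison, 41 were tested. At day 5, 27 were higher and 9 lower in exposed cells, beside 28.6% of all genes called higher and 28.4% called lower. At day 1, 22 were higher and 3 lower, beside 13.4% and 10.5% of all genes. Among 8 receptors and kinases 7 were higher and 1 lower at day 5, and 2 were higher at day 1. Ifnar2 averaged 41.6 ± 5.93 CPM with exposure and 19.9 ± 0.978 CPM without at day 5 (1.07 ± 0.09 on the log2 scale), and Ifnar1 57.2 ± 12.2 and 31.0 ± 2.40 CPM (0.88 ± 0.11). Jak2, a kinase of the interferon gamma and cytokine receptors, averaged 218 ± 79.6 CPM with exposure and 69.6 ± 3.89 CPM without at day 5 (1.64 ± 0.18), while Ifngr1, a chain of the interferon gamma receptor, fell (-0.78 ± 0.08). For all 4 the day 1 effect was not called, and the change of the effect between days was (adjusted p from 2.22e-05 for Ifnar2 to 0.00378 for Ifnar1).

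Of 8 STAT and IRF factors 4 were higher and 3 lower at day 5, and 5 higher and 2 lower at day 1. The shares over all genes were 28.6% higher and 28.4% lower at day 5, and 13.4% and 10.5% at day 1. Irf7, which drives interferon alpha genes, averaged 323 ± 141 CPM with exposure and 3.37 ± 1.11 CPM without at day 5 (6.57 ± 0.33 on the log2 scale), and 86.6 ± 14.8 and 1.50 ± 0.143 CPM at day 1 (5.84 ± 0.33). Irf9, the DNA-binding partner of Stat2, rose by 2.26 ± 0.10 at day 5 and 2.48 ± 0.11 at day 1, and Irf1 by 1.70 ± 0.12 and 1.07 ± 0.12. Irf8, which myeloid cells need to develop, fell to 14.2 ± 4.23 CPM with exposure, against 48.0 ± 2.13 CPM without, at day 5 (-1.76 ± 0.15, adjusted p = 1.02e-08), and its effect was -0.74 ± 0.14 at day 1. Irf7 and Irf9 were also higher in uninfected cells at day 5 than at day 1, by 1.17 ± 0.31 (adjusted p = 0.0148) and 0.67 ± 0.10 (adjusted p = 0.00014), although without uninfected day 5 replicate 3 the call for Irf7 was lost (adjusted p = 0.0548).

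Among 15 sensors and adaptors 12 were higher and 2 lower at day 5, and 11 were higher at day 1. All genes together had shares of 28.6% higher and 28.4% lower at day 5, and 13.4% and 10.5% at day 1. Ddx58, the RNA sensor RIG-I, averaged 233 ± 61.9 CPM with exposure and 19.2 ± 1.63 CPM without at day 5 (3.60 ± 0.15 on the log2 scale), and rose by 3.18 ± 0.15 at day 1. Ikbke, a kinase that activates interferon regulatory factors, rose by 2.22 ± 0.13 at day 5 and 1.51 ± 0.13 at day 1, and Nod2, a sensor of bacterial muropeptides, by 1.92 ± 0.11 and 1.01 ± 0.11. Traf3, an adaptor upstream of interferon production, rose by 1.23 ± 0.09 and 0.49 ± 0.09. Of 8 inhibitors 2 were higher and 3 lower at day 5, and 2 higher and 1 lower at day 1. With so few genes, these counts lie near the shares over all genes. Socs3 rose by 1.65 ± 0.20 at day 5 and 0.68 ± 0.20 at day 1, while the phosphatases Ptpn1 (-0.47 ± 0.07) and Ptpn6 (-0.38 ± 0.09) and the STAT inhibitor Pias1 (-0.33 ± 0.06) fell at day 5. The day 1 call of Socs3 was lost without exposed day 1 replicate 3 or 4 and without uninfected day 1 replicate 1, 2 or 4 (adjusted p up to 0.0675). Socs1, named after its values were seen, had a smaller effect at day 5 than at day 1: 0.55 ± 0.14 against 1.74 ± 0.15 (change -1.19 ± 0.21, adjusted p = 0.000221).

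**Figure D5:**
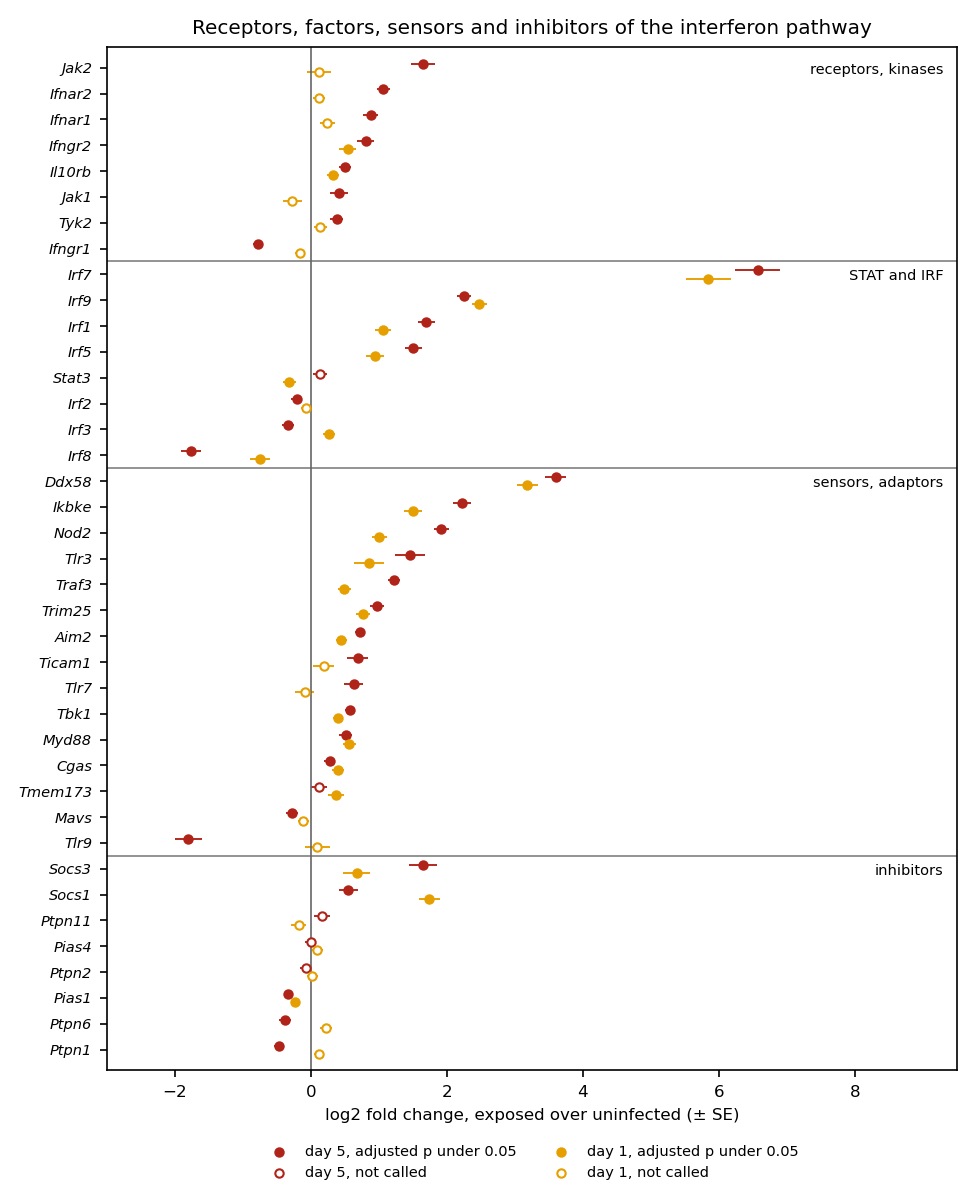
Log2 fold change of exposed over uninfected cells with standard errors for 39 other tested genes of the interferon pathway, by role, at day 5 and at day 1; Ifnb1 and Ifna5 are left out, since each had 0 reads in an uninfected group. Filled points passed an adjusted p of 0.05. Irf7 and Ddx58 lie farthest right, and Tlr9 and Irf8 farthest left at day 5.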

How the data were processed

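Alignment used STAR and the GRCm39 assembly, per the submitters' processing notes. The authors deposited raw counts per Ensembl gene for each of the 16 libraries, reverse-strand counts per the names of the files; no source used here gives versions or the annotation release. Symbols came from GENCODE M21, which matched 52083 of 55359 identifiers, and identifiers without a symbol held 0.449% of counts. Groups were taken from the labels. Genes were filtered with filterByExpr by group, scaled by TMM and fitted in edgeR 4.0.16 (R 4.3.3) with robust quasi-likelihood over all 16 libraries; p-values were adjusted by the Benjamini-Hochberg method over 17190 genes and called at 0.05. A standard error is the log2 fold change divided by the square root of its F statistic. CPM uses TMM-scaled library sizes.

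The 36 genes, the pathway and marker lists and the tests were chosen with earlier results of these data known. Values in each library are given for the 3 called genes with the largest change in each comparison and at least 5 CPM in the higher group, the gene with the smallest change, and the gene of each role with the highest mean CPM over all libraries; of pathway genes, up to 4 per role with the smallest p at day 5, and Ifnb1. Alternatives were RLE size factors, DESeq2 1.42.0, 2 other low-count filters, fits on the compared libraries alone, a replicate block, each library left out, replicates 1 and 2 or 3 and 4 alone, and exposed day 5 replicates 1 and 4 alone, which leaves out both libraries with another code. The labels do not say whether libraries with the same replicate number belong together. Same-numbered libraries' deviations correlated between -0.151 and 0.148, which shows no pairing but cannot exclude one. Promoter windows are from RefSeq on GRCm38.p6, another build than that of the counts, and were matched by symbol. No sequence of the proteins was used here. Of the pathway lists, 1 gene of the pathway lists is not reported here.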

Additional observations from a re-analysis of the deposited data

Results flagged for a closer look

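The exposure effect differed between day 5 and day 1, by the test of the interaction, for 19 of the 36 effector genes. Of all genes, 16.4% were called larger and 19.5% smaller at day 5. The effect also differed for 13 of the pathway genes given with values, most of which were picked by their day 5 p. Among all 41 tested pathway genes, 12 were called larger and 7 smaller. On the log2 scale, day 5 minus day 1, Isg15 changed by 1.19, Herc6 by 1.37, Ifit2 by 2.90, Ifit3 by 2.38, Rsad2 by 2.43, Ifih1 by 0.81, Ddx60 by 0.75, Zbp1 by 0.54 and Rtp4 by -1.03. Adar changed by 0.44, Isg20 by 1.15, Parp12 by 0.86, Parp14 by 1.55, Dtx3l by 0.70, Bst2 by 1.77, Lgals3bp by 1.62, Samd9l by 0.55, Apol9a by 3.43 and Apol9b by 3.02. Of the pathway genes, Ifnar1 changed by 0.64, Ifnar2 by 0.94, Ifngr1 by -0.62, Jak2 by 1.52, Irf1 by 0.64, Irf8 by -1.02, Ikbke by 0.71, Traf3 by 0.73, Nod2 by 0.91, Socs1 by -1.19, Socs3 by 0.97, Ptpn1 by -0.59 and Ptpn6 by -0.61.

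One library stood apart from the other 3 of its group, by Dixon's test at the 95% level, in 10 of 217 gene and group pairs, close to the rate of about 1 in 20 that chance gives. Replicate 4 stood apart for Socs1 in exposed day 5 (13.4 CPM), for Traf3 in exposed day 1 (96.1 CPM), for Sp100 (6.31 CPM) and Apol9a (0.0766 CPM) in uninfected day 5 and for Ifnar1 in uninfected day 1 (35.0 CPM). Replicate 3 stood apart for Apol9a (7.04 CPM) and Irf7 (64.6 CPM) in exposed day 1, for Stat2 in uninfected day 5 (23.7 CPM) and for Ddx58 in uninfected day 1 (14.7 CPM). Replicate 2 stood apart for Bst2 in uninfected day 1 (20.0 CPM).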

How the results depend on the processing

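Among the 36 genes, all 36 kept their exposure effect call at day 5 under every alternative run, and at day 1 35 did, Isg20 losing it with replicates 3 and 4 alone (adjusted p = 0.0689). Of the counts that follow, those with 1 library left out stayed within 1.5 times of the full count, except for pathway genes in uninfected cells, and the others, the replicate block apart, moved by over 1.5 times; the cause was not tested. Changes of effect between days were called for 19 of the 36 genes, for 12 without a filter beyond 1 read, 5 with replicates 1 and 2 alone, 4 with replicates 3 and 4 alone and 13 to 25 with 1 library left out. For uninfected cells 11 of the 36 were called, 17 in the fit on those libraries alone, 2 with replicates 1 and 2, 4 with replicates 3 and 4 and 9 to 13 with 1 library left out. Of the 41 pathway genes, 25 were called at day 1, but 12 with replicates 1 and 2 and 11 with replicates 3 and 4; 19 changes of effect were called, but 6 with replicates 3 and 4; and 28 were called between exposed days, but 16 with replicates 3 and 4. For uninfected cells 8 pathway genes were called, 13 by DESeq2, 20 in the fit on those libraries alone, 17 with exposed day 5 replicates 1 and 4 alone, 2 with replicates 1 and 2, 0 with replicates 3 and 4 (edgeR; 9 at an unadjusted p under 0.05) and 7 to 16 with 1 library left out, 16 being without exposed day 5 replicate 3. Adding the replicate block gave 21 changes of effect (21 higher, 0 lower), 13 uninfected calls and 35 calls between exposed days among the 36 genes, within 1.5 times of the counts without it.

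Signs turned only in values that were not called. For the change of effect, Ifi35 ran from -0.0907 to 0.15 with 1 library left out, Stat2 was -0.0070 and Ifnb1 3.23 with replicates 1 and 2, and Mx2 was -0.0118 with replicates 3 and 4. In uninfected cells Bst2 was -0.0159 with RLE factors, -0.0164 by DESeq2 and -0.0167 without a filter, -0.142 with replicates 3 and 4, and -0.0937 to 0.0561 with 1 library left out. Ifi44 was -0.10 by DESeq2, -0.77 with replicates 3 and 4 and -0.48 to 0.39 with 1 left out; the ranges were -0.20 to 0.50 for Mx1 and -0.0567 to 0.00879 for Jak2. With replicates 1 and 2, Adar was 0.0193, Ifnb1 0 and Ifnar1 0.00073; with replicates 3 and 4, Rnf213 was -0.18 and Ptpn6 -0.0382. Under the replicate block Ifna5 was 0.0790, and between exposed days Socs1 was 0.0425 with exposed day 5 replicates 1 and 4 and 0.0541 with replicates 3 and 4. Depth limits the genes with few uninfected reads, such as Ifi44, Mx1, Mx2, Ifi205, Apol9a and Apol9b.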
